A study of Mus musculus with 8 samples.

Results

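The cytosolic ribosomal protein genes encode the proteins of the small (40S) and large (60S) subunits of the ribosome that works in the cytosol. They were taken by name alone, as the rows of the count table whose symbol is Rpl or Rps followed by a number and at most a single letter a, x, l, k or y, together with Rplp0, Rplp1, Rplp2 and Rpsa. This gave 83 of 55421 rows, of which 30 encode 40S proteins, 43 encode 60S proteins, 3 encode the stalk of the 60S subunit, and 7 are paralogs or pseudogenes. By annotation 80 of the 83 are protein coding, while Rps4l, Rpl6l and Rpl32l are processed pseudogenes. The genes lie on 19 chromosomes, with 14 on chromosome 7 and 4 on the X chromosome (Rpl10, Rpl36a, Rpl39 and Rps4x).

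Poly(A) RNA was sequenced from SSC culture, a primary culture of mouse undifferentiated spermatogonia on a layer of embryonic fibroblasts that had been arrested by irradiation. The cultures were of C57BL/6XDBA/2 F1 hybrid background and lacked either Stra8, a gene that retinoic acid induces before meiosis, or Spo11, which makes the DNA breaks of meiosis, and the knockouts were constitutive. All were grown with N2, bFGF and GDNF, and received vehicle (Veh) or NRRA, a nutrient-restricted medium combined with retinoic acid, for 2 days. The paper made the nutrient-restricted medium by diluting the complete culture medium with a balanced salt solution, so N2, bFGF and GDNF were diluted as well. Nutrients, growth factors and retinoic acid thus differed together between Veh and NRRA and cannot be told apart here. The groups were STRA8KO Veh, STRA8KO NRRA, SPO11KO Veh and SPO11KO NRRA, with 2 libraries each, and wild-type cultures are not analysed here. The knockouts came from separate mutant stocks and were separate cultures. The gene lost, the stock and the culture thus differed together between the genotypes and cannot be told apart here. The study states that its sequencing replicates were biological and independent, and that replicates used different mice, tissues or cells, while the labels do not say which of these differed between the libraries of a group. The p-values measure the spread between these libraries.

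Ribosomal protein mRNAs are among the most abundant mRNAs of a growing cell and are made in near-equal amounts, since each canonical ribosome holds a single copy of nearly every protein. Most begin with a C followed by a run of pyrimidines, the 5′ terminal oligopyrimidine (TOP) motif, through which the kinase complex mTORC1 and the protein LARP1 couple their translation to nutrient supply. That control acts on translation, which RNA-seq does not measure. In the testis, some X-linked ribosomal protein genes have autosomal paralogs, such as Rpl10l for Rpl10 and Rpl39l for Rpl39, that are transcribed in germ cells when the X chromosome is silenced at meiosis.

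The sequences around the annotated start sites of some of these genes show whether a pyrimidine run covers the annotated start. Each window is RefSeq sequence of the GRCm38.p6 assembly on the gene's own strand, 5′ to 3′, from 10 bases before the start through 15 bases that begin with the start base itself. Capitals mark a run of at least 5 pyrimidines (C or T) that covers the start base. The first windows are genes with such a run, and the others are paralog pairs and a stalk gene named in the results below, most of which lack it.
Rps6, chr4:86857353-86857377 (minus strand): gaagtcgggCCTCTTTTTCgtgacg
Rpl15, chr14:18270972-18270996 (minus strand): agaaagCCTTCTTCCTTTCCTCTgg
Rpl35, chr2:39005117-39005141 (minus strand): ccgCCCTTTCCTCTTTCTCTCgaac
Rps18, chr17:33955651-33955675 (minus strand): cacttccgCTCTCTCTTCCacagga
Rps27, chr3:90213634-90213658 (minus strand): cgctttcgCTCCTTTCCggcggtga
Rps27l, chr9:66946076-66946100 (plus strand): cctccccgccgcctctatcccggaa
Rpl39, chrX:37085208-37085232 (minus strand): gctccgCCTCTagcgacttcttcta
Rpl39l, chr16:10170218-10170242 (plus strand): aggcctttccggatttccggtggtc
Rpl10, chrX:74270806-74270830 (plus strand): tacagtggaagataggccgcctata
Rpl10l, chr12:66284387-66284411 (minus strand): cctccattttgcggctggcggtggg
Rps4x, chrX:102189377-102189401 (minus strand): gctgggcggagcaacccaggctcca
Rpl3l, chr17:24727816-24727840 (plus strand): ttctagctctgtcatttgacctctg
Rplp0, chr5:115559457-115559481 (plus strand): cgggtttcgaggaccgcctggttct

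Of the 83 genes, 61 were in the promoter table, and 21 of these (34.4%) had such a run across the annotated start, against 11.8% of the 27025 genes in the table. A run of at least 7 pyrimidines there was found in 20 of the 61 (32.8%) and in 6.22% of all genes. When a run of at least 7 could lie anywhere from 10 bases before to 50 bases after the start, 50 of the 61 genes (82.0%) and 36.3% of all genes had it. An annotated start can lie some bases from the start that cells use, so a window without capitals says only that the run does not cover that base. Of the paralog pairs, Rps27 and Rpl39 had a run across the start, and Rps27l, Rpl39l, Rpl10, Rpl10l, Rps4x and Rpl3l had none.

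The libraries held 20960794 to 27038868 counts. Stra8 had 0 to 2 counts in STRA8KO with Veh, 169 and 170 with NRRA, 12 to 28 in SPO11KO with Veh, and 12604 and 16191 with NRRA. Within each medium it was thus lower in STRA8KO than in the libraries labelled SPO11KO. With NRRA it rose in STRA8KO as well (log2 fold change 7.25, edgeR adjusted p = 2.06e-11), to counts above those of SPO11KO with Veh. Spo11 gave no such check, with 31 to 68 counts in the STRA8KO libraries and 72 to 148 in the libraries labelled SPO11KO. It was called lower in STRA8KO than in SPO11KO in both media. The log2 fold changes were -1.07 (edgeR adjusted p = 0.000294) in Veh and -0.66 (edgeR adjusted p = 0.00188) in NRRA. Spo11 counts thus did not bear out the SPO11KO label, which these libraries keep here without a check from counts. The 16 fibroblast markers summed to 29538 to 30094 CPM (counts per 1000000) in STRA8KO with Veh, 45909 to 46664 with NRRA, 15367 to 15494 in SPO11KO with Veh, and 23418 to 24098 with NRRA. The 7 pan-germ markers in the table summed to 675 to 678, 770 to 807, 1370 to 1419 and 1532 to 1597 CPM in the same order. The fibroblast markers did not all follow their sum, since with NRRA 11 of the 16 had higher and 5 lower values in each genotype. The lowest log2 fold changes were those of S100a4 (-2.17 in STRA8KO and -1.66 in SPO11KO) and Vim (-0.82 and -0.77). Col3a1 had the highest (1.78 and 1.68). No marker of either list was at 0 in any group, and 9 of 9 markers of undifferentiated spermatogonia passed the filter on low counts.

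Levels below are CPM after TMM scaling, and 83 of the 83 genes passed the filter on low counts. Together the genes held 2.65% and 2.73% of all counts in STRA8KO with Veh, 2.46% and 2.56% with NRRA, 2.95% and 2.83% in SPO11KO with Veh, and 3.08% and 2.89% with NRRA. The means were 2.69% ± 0.0546 (SD, n = 2), 2.51% ± 0.0747, 2.89% ± 0.0888 and 2.98% ± 0.137 in this order. Both libraries labelled SPO11KO lay above both STRA8KO libraries in each medium, and the STRA8KO NRRA libraries were the lowest of the 8, while the SPO11KO Veh and SPO11KO NRRA libraries overlapped. With 2 libraries a group, an exact permutation test (two-sided) cannot give a p below 0.33, so shares were compared by their values only.

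Within every group the genes shifted together between the libraries. Replicate 1 was above replicate 2 for 13 of 83 genes in STRA8KO with Veh, 13 with NRRA, 67 in SPO11KO with Veh, and 69 with NRRA, where 47.3% to 51.7% of all tested genes were. The median log2 difference between the libraries was -0.0425, -0.0672, 0.0555 and 0.0795 over the 83 genes, and -0.0086 to 0.0055 over all genes. A shift of a few percent shared by the whole set thus occurred between libraries of 1 group, and several of the differences given below are of this size. The 40S genes held 1.08% ± 0.0271, 1.01% ± 0.0338, 1.13% ± 0.0421 and 1.19% ± 0.0637 of the counts in the 4 groups. The 60S genes held 1.35% ± 0.0230, 1.25% ± 0.0303, 1.48% ± 0.0359 and 1.51% ± 0.0593, so both subunits followed the order of the total.

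**Figure D1:**
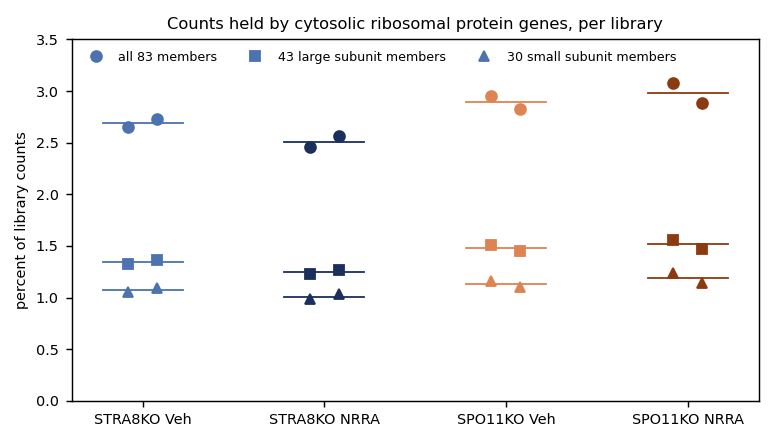
Share of each library's counts (percent) held by the cytosolic ribosomal protein genes, for all 83, the 43 large subunit and the 30 small subunit genes, with a point for each of the 8 libraries and a line at the mean of each group. The 2 STRA8KO NRRA libraries sit lowest, at 2.46% and 2.56%, and the libraries labelled SPO11KO lie between 2.83% and 3.08%.

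Per kilobase of transcript, the mean level over the 4 groups ran from 0.846 CPM (Rpl24) to 1614 CPM (Rplp1), with a median of 383 CPM per kilobase. The stalk genes Rplp1 and Rplp2 (1204 CPM per kilobase) led, followed by the 40S genes Rps28 (1174) and Rps12 (1014), and these 4 were the ones above 1000. Leaving out the 7 paralogs and pseudogenes, the median of the other 76 was 409 CPM per kilobase. Among these 76, the lowest rows were Rpl24, Rps10 (8.67 CPM per kilobase) and Rpl13a (22.2). The annotation lays other genes over 47.0% of the exonic bases of Rpl24, 28.7% of Rps10 and 35.4% of Rpl13a. The share was 66.2% for Rpl35 and 62.3% for Rpl23a, which were not among the low rows, and the part of such overlap in the levels was not tested. In addition, 35 of the 83 genes shared at least 50% of their 100-base windows with another gene of the annotation, and how reads that match several places were counted is not given in the sources used here.

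The paralogs Rpl3l, Rpl10l and Rpl39l were lower in STRA8KO than in the libraries labelled SPO11KO in both media, and Rpl3l and Rpl10l were called higher with NRRA in both genotypes. Rpl3l (chromosome 17, 24727820 to 24736143, GRCm38) encodes the paralog of Rpl3 that is best known from striated muscle. It stood at 1.34 and 1.71 CPM in STRA8KO with Veh, 3.48 and 3.32 with NRRA, 3.54 and 3.65 in SPO11KO with Veh, and 6.83 and 7.74 with NRRA. Levels were higher in NRRA than in Veh in both genotypes and higher in the libraries labelled SPO11KO in both media, with no overlap between groups compared. The log2 fold change with NRRA was 1.16 ± 0.243 (SE, edgeR adjusted p = 0.000124) in STRA8KO and 1.02 ± 0.154 (SE, edgeR adjusted p = 3.88e-07) in SPO11KO. That of STRA8KO against SPO11KO was -1.24 ± 0.235 (SE, edgeR adjusted p = 1.51e-05) in Veh and -1.10 ± 0.161 (SE, edgeR adjusted p = 1.11e-07) in NRRA. Rpl3 itself, at 298 CPM in STRA8KO Veh and 272 in SPO11KO NRRA, passed the test in none of the 4 comparisons. In bulk RNA from a culture of several cell types, for this and all later values, fewer cells of a type and less RNA per cell cannot be told apart.

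Rpl10l (chromosome 12, 66283379 to 66284401) is an intronless copy of the X-linked Rpl10 that is needed for male meiosis in mice. Its levels were 25.1 and 22.96 CPM in STRA8KO with Veh, 29.1 and 34.3 with NRRA, 51.3 and 50.1 in SPO11KO with Veh, and 56.4 and 57.8 with NRRA. The libraries labelled SPO11KO lay above STRA8KO in both media, with log2 fold changes of STRA8KO against SPO11KO of -1.07 ± 0.0724 (SE, edgeR adjusted p = 1.56e-16) in Veh and -0.85 ± 0.0672 (SE, edgeR adjusted p = 1.99e-14) in NRRA. With NRRA it rose by 0.40 ± 0.0783 (SE, edgeR adjusted p = 4.88e-05) in STRA8KO. The smaller value in SPO11KO, 0.17 ± 0.0621 (SE, edgeR adjusted p = 0.0196), lost its call without SPO11KO Veh replicate 2 (edgeR adjusted p = 0.121), without SPO11KO NRRA replicate 2 (0.158) and under DESeq2 (0.0894). Rpl39l (chromosome 16, 10170226 to 10174911), the testis-enriched paralog of the X-linked Rpl39, stood at 18.9 and 21.95 CPM in STRA8KO with Veh, 22.5 and 23.7 with NRRA, 32.8 and 28.8 in SPO11KO with Veh, and 38.3 and 33.2 with NRRA. It was lower in STRA8KO, with log2 fold changes of -0.60 ± 0.0874 (SE, edgeR adjusted p = 1.48e-07) in Veh and -0.63 ± 0.0819 (SE, edgeR adjusted p = 1.32e-08) in NRRA. Its NRRA values were 0.18 (edgeR adjusted p = 0.116) in STRA8KO and 0.21 (edgeR adjusted p = 0.0207) in SPO11KO. The latter was lost without SPO11KO Veh replicate 2 (0.349), without SPO11KO NRRA replicate 1 (0.399) and under DESeq2 (0.0947).

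The canonical X-linked partners went the opposite way between the genotypes. Rpl10 (chromosome X, 74270812 to 74273135) stood at 281 and 279 CPM in STRA8KO with Veh, 269 and 283 with NRRA, 199 and 192 in SPO11KO with Veh, and 203 and 187 with NRRA. Rpl39 (chromosome X, 37082520 to 37085402) stood at 83.5 and 91.2 CPM in STRA8KO with Veh, 75.1 and 78.4 with NRRA, 47.5 and 45.4 in SPO11KO with Veh, and 46.7 and 35.9 with NRRA. Both were higher in STRA8KO in both media, Rpl10 by 0.52 ± 0.0419 (SE, edgeR adjusted p = 3.9e-14) in Veh and 0.50 ± 0.0417 (SE, edgeR adjusted p = 8.4e-14) in NRRA. For Rpl39 the values were 0.91 ± 0.0912 (SE, edgeR adjusted p = 6.96e-07) and 0.90 ± 0.0918 (SE, edgeR adjusted p = 7.62e-07). Per kilobase, Rpl10l therefore amounted to 6.71%, 8.99%, 20.3%, 22.8% of Rpl10, and Rpl39l to 26.01%, 33.5%, 73.8%, 96.5% of Rpl39, in the same order of groups. The coding sequences of these pairs are 84.7% (Rpl10 and Rpl10l) and 84.97% (Rpl39 and Rpl39l) identical, and no 100-base window of either paralog occurs in another gene, whereas 91.6% of the windows of Rpl10 do.

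Rps4l (chromosome 6, 148354656 to 148355598), a copy of the X-linked Rps4x that the annotation classes as a transcribed processed pseudogene, had the highest mean level per kilobase of the 7 paralogs and pseudogenes. It stood at 136 and 129 CPM in STRA8KO with Veh, 119.6 and 119 with NRRA, 228 and 221 in SPO11KO with Veh, and 151 and 153 with NRRA. The 2 SPO11KO Veh libraries were the highest of the 8. Its level was lower in NRRA than in Veh, with log2 fold changes of -0.56 ± 0.0417 (SE, edgeR adjusted p = 5.13e-15) in SPO11KO and -0.15 ± 0.0445 (SE, edgeR adjusted p = 0.00596) in STRA8KO, the latter lost without STRA8KO Veh replicate 1 (0.163). Its partner Rps4x (chromosome X, 102184941 to 102189394) had 343 and 355 CPM in STRA8KO with Veh, 324 and 343 with NRRA, 186 and 186 in SPO11KO with Veh, and 167 and 164 with NRRA. Rps4x was higher in STRA8KO by 0.91 ± 0.0396 (SE, edgeR adjusted p = 1.43e-22) in Veh and 1.01 ± 0.0396 (SE, edgeR adjusted p = 3.8e-24) in NRRA. Rps4l was lower in STRA8KO, at -0.76 ± 0.0428 (SE, edgeR adjusted p = 5.16e-19) and -0.35 ± 0.0435 (SE, edgeR adjusted p = 3.98e-09). Rps27l (chromosome 9, 66946086 to 66949516), a paralog of Rps27 that p53 is known to induce, was the exception among the protein-coding paralogs. It had 69.6 and 69.04 CPM in STRA8KO with Veh, 66.03 and 65.2 with NRRA, 41.2 and 43.5 in SPO11KO with Veh, and 39.1 and 40.4 with NRRA. It was higher in STRA8KO by 0.71 ± 0.0576 (SE, edgeR adjusted p = 3.77e-14) in Veh and 0.72 ± 0.0571 (SE, edgeR adjusted p = 1.73e-14) in NRRA. Its NRRA values of -0.08 (edgeR adjusted p = 0.26) and -0.09 (edgeR adjusted p = 0.209) did not pass the test. Rps27 passed the test in no comparison, its log2 fold changes running from 0.05 to 0.43, and 98.4% of its windows occur in another gene.

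**Figure D2:**
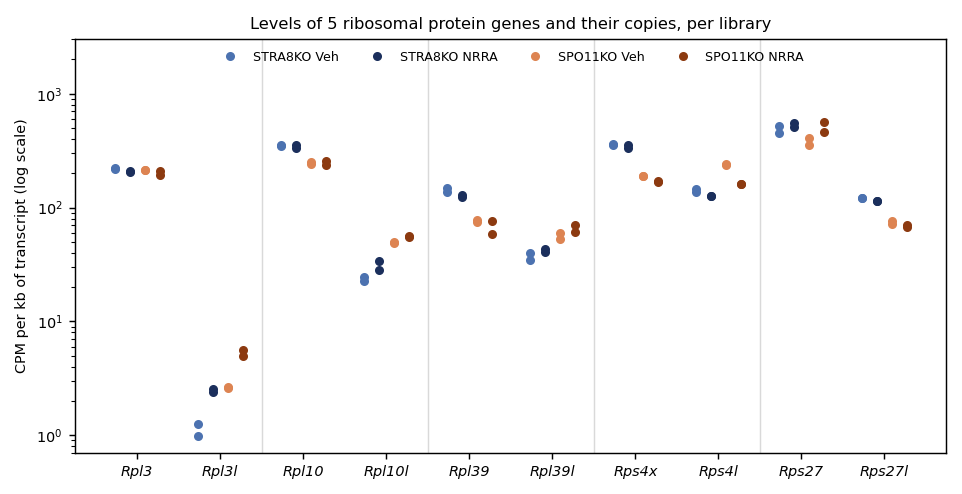
CPM per kilobase of transcript (log axis) of Rpl3l, Rpl10l, Rpl39l, Rps4l and Rps27l beside their partners, a point for each of the 8 libraries coloured by group. Rpl3l, Rpl10l, Rpl39l and Rps4l are higher in the libraries labelled SPO11KO, and Rps27l, Rpl10, Rpl39 and Rps4x are higher in STRA8KO.

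These paralog and X-linked differences between genotypes ran beside differences in cell type markers. In STRA8KO against SPO11KO, 16 of 16 fibroblast markers were called higher in Veh (median log2 fold change 1.003) and in NRRA (0.975), and 7 of 7 pan-germ markers were called lower (-0.978 and -1.039). Over all genes, 31.5% and 35.2% were called higher in Veh and in NRRA, and 30.7% and 29.1% lower. Xist, which is transcribed from an inactive X chromosome, stood at 340.4 to 374 CPM in the STRA8KO libraries and 162 to 180 CPM in those labelled SPO11KO. The 762 X-linked genes tested had medians of -0.013 in Veh and -0.049 in NRRA, with genes called in both directions and 465 (61.0%) at an absolute log2 fold change of at least 0.5 in each medium. Of the 9 markers of undifferentiated spermatogonia, 9 were called lower in STRA8KO in Veh (median -1.275) and 8 higher in NRRA (median 1.052), with the ninth, Pou5f1, not called there (-0.07). The part of these cell type markers and of Xist in the results on ribosomal protein genes was not tested. The other X-linked gene, Rpl36a, was at 167 and 173 CPM in STRA8KO with Veh, 146 and 153 with NRRA, 155 and 142 in SPO11KO with Veh, and 162 and 148 with NRRA. It was called higher in STRA8KO in Veh (0.20, edgeR adjusted p = 0.000492) and not called in NRRA (-0.05, edgeR adjusted p = 0.362).

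In STRA8KO, NRRA went with a small decrease across the set. Of the 83 genes, 37 were called lower, 2 higher and 44 not called at an adjusted p under 0.05, where 20.1% of the 20588 genes tested were called lower and 21.4% higher (41.5% called in all). The median log2 fold change was -0.098 ± 0.0395 (SD over choices of 1 library per group) against 0.013 over all genes, with -0.083 for the 40S genes and -0.101 for the 60S genes. The size was small beside the rest of the transcriptome, since 2 of 83 genes (2.41%) reached an absolute log2 fold change of 0.5, against 29.9% of all genes and 16.6% of the 586 genes whose log2 CPM averaged at least 8. Those 586 abundant genes had a median of -0.071, and 259 of them were called lower, 139 higher and 188 not called. In all, 67.9% of the abundant genes were called, against 47.0% of the 83 genes. Groups did not overlap for 63 of the 83 genes, against 69.4% of all genes. The count of decreases was 13 without STRA8KO Veh replicate 2, 16 without STRA8KO NRRA replicate 1 and 24 without STRA8KO Veh replicate 1. It was 17 with the abundance trend removed and 64 with length and GC trends removed. In the latter setting, 6058 of all genes were called lower and 3583 higher, with a median of -0.072. With the abundance trend removed, 4160 of all genes were called lower and 4150 higher (median -0.012). The median of the 83 genes was between -0.202 and -0.057 under every alternative, and that of all genes between -0.072 and 0.022.

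Some genes were called lower in STRA8KO NRRA under every alternative scaling, filter and tool and without each library in turn. They included Rpl6, Rpl7a, Rpl8, Rpl14, Rpl35, Rpl36a and Rpl41. How many of all tested genes were called under every alternative was not counted, for this or the later comparisons. Whether ribosomal protein genes held their calls more or less often than other genes was thus not tested. Rpl35, whose window above has the longest pyrimidine run of those printed, stood at 305 and 305 CPM in STRA8KO Veh and 244 and 256 CPM in STRA8KO NRRA, a log2 fold change of -0.28 ± 0.0383 (SE, edgeR adjusted p = 4.81e-08). Rpl8, a protein at the catalytic centre of the 60S subunit, went from 709 and 721 to 602 and 627 CPM (-0.22 ± 0.0360 SE, edgeR adjusted p = 2.69e-06). Rpl41, the smallest ribosomal protein, went from 482 and 493 to 391 and 431 CPM (-0.25 ± 0.0417 SE, edgeR adjusted p = 6.65e-06). Rpl13a, a 60S protein also known for a role in silencing inflammatory mRNAs, had the largest decrease that passed the test, -0.30 ± 0.0803 (SE, edgeR adjusted p = 0.00256), at 28.98 and 27.04 against 21.9 and 23.8 CPM. The call was lost without STRA8KO NRRA replicate 1 (0.0622) or STRA8KO Veh replicate 1 (0.0656). The pseudogene Rpl32l had a lower value still, -0.51, at 2.73 and 3.02 against 1.74 and 2.26 CPM, without passing the test (edgeR adjusted p = 0.112). The 2 increases were Rpl3l and Rpl10l, described above. Genes with the pyrimidine run across the start had a median of -0.108 and the other genes of the promoter table -0.081.

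**Figure D3:**
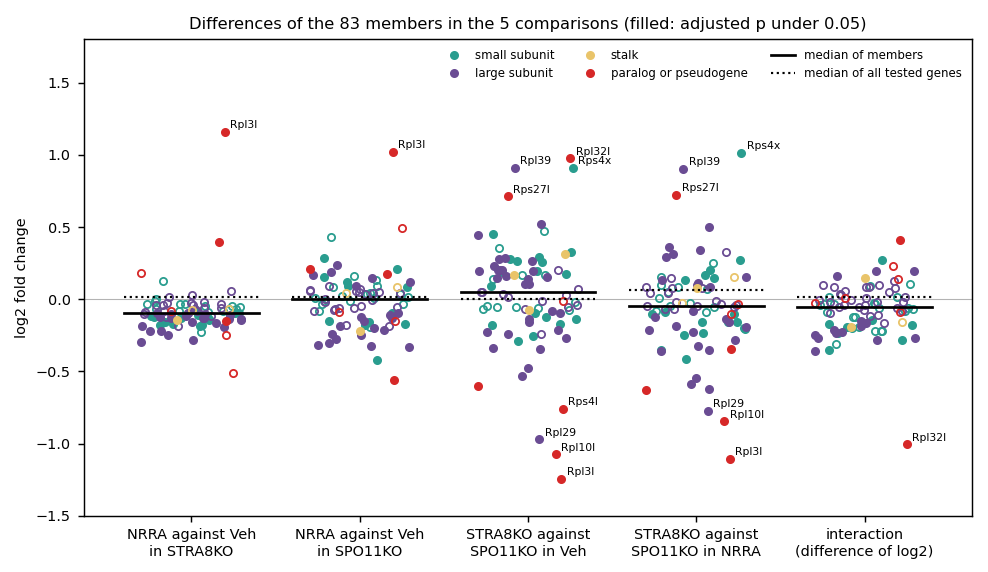
Log2 fold change of the cytosolic ribosomal protein genes, a point per gene coloured by class and filled where called, in the 4 comparisons and the interaction, with a solid line at their median and a dotted line at that of all tested genes. In STRA8KO, NRRA shifts the set to a median of -0.098, and in SPO11KO the genes spread on both sides of 0 around a median of -0.002.

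In the libraries labelled SPO11KO, NRRA went with changes in both directions. Of the 83 genes, 15 were called higher, 23 lower and 45 not called, against 24.7% of all genes higher and 25.5% lower (50.3% called). The median was -0.002 ± 0.0585, against 0.013 over all genes and -0.135 over the 586 abundant genes, and it was 0.017 for the 40S genes and -0.06 for the 60S genes. The split between directions depended on the scaling, with 32 higher and 14 lower by total counts and 37 higher and 9 lower once a trend with abundance was removed. By total counts the median of all genes moved from 0.013 to 0.105. The count of increases was 7 without SPO11KO NRRA replicate 1 and 8 without SPO11KO Veh replicate 2. The groups did not overlap for 46 of the 83 genes, where 71.9% of all genes did not.

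The decreases that held under every alternative were Rps2, Rps4l, Rpl6, Rpl8, Rpl11, Rpl27, Rpl29, Rpl38 and Rpl41. Rps2, a 40S protein near the mRNA entry channel, had the largest fall of a canonical gene, from 964 and 842 CPM in SPO11KO Veh to 693 and 658 CPM in SPO11KO NRRA (-0.42 ± 0.0461 SE, edgeR adjusted p = 1.8e-07). The 60S gene Rpl27 went from 193 and 179 to 151 and 145 CPM (-0.33 ± 0.0433 SE, edgeR adjusted p = 1.85e-08). Rpl29, which also binds heparin, went from 149 and 147 to 121 and 115 CPM (-0.33 ± 0.0468 SE, edgeR adjusted p = 1.53e-07). The increases that held included Rpl3l, Rpl27a and Rps28. Rps28, a 40S gene at the mRNA exit side, went from 299.6 and 284 to 345 and 329.9 CPM (0.21 ± 0.0443 SE, edgeR adjusted p = 0.000159). The 60S gene Rpl27a went from 402 and 386 to 464 and 435 CPM (0.19 ± 0.0378 SE, edgeR adjusted p = 4.51e-05). Rps27 had a high value without passing the test, 0.43 (edgeR adjusted p = 0.0821), as had Rpl32l, 0.49 (edgeR adjusted p = 0.145), whose libraries overlapped. Cell type markers moved in the same comparison. Of these, 11 of 16 fibroblast markers were called higher and 5 lower (median 0.367), and 9 of 9 markers of undifferentiated spermatogonia were called lower (median -2.769). In STRA8KO, 10 and 5 fibroblast markers (median 0.448) and 4 and 4 spermatogonial markers (median 0.013) were called higher and lower. The part of these markers in the NRRA results was not tested. Genes with the pyrimidine run had a median of 0.003 and the others of -0.011.

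Set side by side, 16 of the 83 genes were called lower with NRRA in both genotypes, which share no library, where 13.6% of all genes were. Another 2 were called higher in both (13.2% of all genes) and 28 in neither (38.0% of all genes). The 16 included Rpl5, Rpl6, Rpl7, Rpl7a, Rpl8, Rpl14, Rpl18, Rpl27, Rpl35, Rpl38, Rpl41, Rps2, Rps4l and Rpsa, of which Rpl6, Rpl8 and Rpl41 were called lower in both genotypes under every alternative. Rpl17, Rpl23a, Rpl26 and Rps26 were called lower in STRA8KO and higher in SPO11KO. Rpl26, a 60S protein that also binds p53 mRNA, stood at 262 and 259 CPM in STRA8KO with Veh, 229 and 246 with NRRA, 331 and 329 in SPO11KO with Veh, and 379 and 352 with NRRA. The log2 fold changes with NRRA were -0.13 (edgeR adjusted p = 0.00776) and 0.15 (edgeR adjusted p = 0.00178). The difference between the NRRA effects was tested directly as an interaction, the effect in STRA8KO minus that in SPO11KO. It was called negative for 21 of the 83 genes and positive for 6. Over all genes, 10.1% were called negative and 14.6% positive (24.7% called). Of the 586 genes whose log2 CPM averaged at least 8, 84 were called negative and 204 positive (49.1% called). Over the 83 genes the median interaction was -0.057 ± 0.0629, against 0.013 over all genes and 0.071 over those abundant genes. The median stayed negative under every alternative, between -0.165 and -0.019. Over all genes, calls were 3014 positive and 2080 negative with TMM scaling, and 2160 and 3415 by total counts (median -0.08). They were 2647 and 2550 with the abundance trend removed, 2666 and 2994 with length and GC trends removed, and 2669 and 2426 with DESeq2 size factors. The split of the 83 genes was 1 positive and 34 negative by total counts and 1 and 34 with the abundance trend removed. It was 2 and 41 with length and GC trends removed and 2 and 26 with DESeq2 size factors. Negative calls numbered 10 without STRA8KO Veh replicate 2, 10 without STRA8KO NRRA replicate 1 and 12 without SPO11KO NRRA replicate 1, and positive calls 2 without STRA8KO Veh replicate 1 or STRA8KO NRRA replicate 2.

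The negative interactions that held under every alternative included those of Rpl23a, Rpl26, Rpl27a, Rpl30, Rps23 and Rps28, and the single positive interaction was that of Rps4l. For Rps4l the fall with NRRA was smaller in STRA8KO by 0.41 ± 0.0610 (SE, edgeR adjusted p = 9.13e-07). Rps28 had an interaction of -0.28 ± 0.0630 (SE, edgeR adjusted p = 0.000879), with 320.2 and 339 CPM in STRA8KO Veh and 295 and 332 CPM in STRA8KO NRRA beside its rise in SPO11KO. Rps23, a 40S protein of the decoding centre, had an interaction of -0.24 ± 0.0553 (SE, edgeR adjusted p = 0.00103), with NRRA values of -0.16 (edgeR adjusted p = 0.00123) in STRA8KO and 0.08 (edgeR adjusted p = 0.0793) in SPO11KO. The 40S gene Rps20 stood at 433 and 447 CPM in STRA8KO with Veh, 401 and 438 with NRRA, 334 and 309 in SPO11KO with Veh, and 410.1 and 373 with NRRA. It had an interaction of -0.35 ± 0.0653 (SE, edgeR adjusted p = 0.000153) that was lost once length and GC trends were removed (0.19). Rps2 had the opposite sign, 0.27 ± 0.0653 (SE, edgeR adjusted p = 0.00357), which DESeq2 (0.0882) and total counts (0.166) did not call. Rpl10l, at 0.23 (edgeR adjusted p = 0.0966), and Rpl3l, at 0.14 (edgeR adjusted p = 0.799), showed no called difference between the genotypes, with standard errors of 0.100 and 0.295 on the log2 scale.

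**Figure D4:**
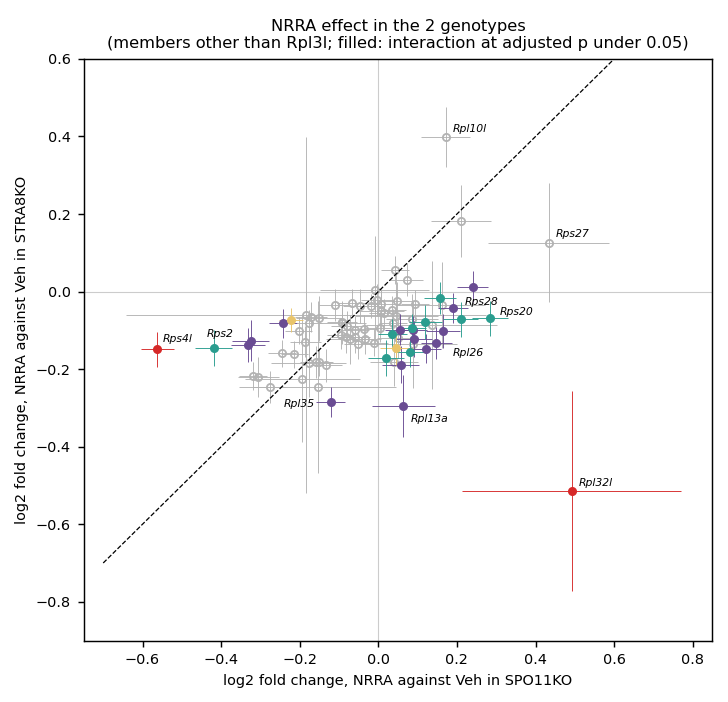
NRRA effect (log2 fold change against Veh) in SPO11KO on the x axis and in STRA8KO on the y axis, a point with bars of 1 SE for each cytosolic ribosomal protein gene except Rpl3l, filled where the interaction was called, with a dashed line of equal effects. Most points lie below 0 on the y axis and spread to both sides of 0 on the x axis, and Rps4l lies farthest above the line among the filled points.

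Between the genotypes, which also differed in mutant stock and culture, genes differed in both directions. In Veh, 33 of the 83 genes were called higher in STRA8KO than in SPO11KO, 25 lower and 25 not called, against 31.5% of all genes higher and 30.7% lower (62.1% called). The median was 0.052 ± 0.0448 against 0.002 over all genes, and by total counts, which moved the median of all genes to -0.112, the split was 15 higher and 37 lower. With the abundance trend removed it was 21 higher and 37 lower. An absolute log2 fold change of 0.5 was reached by 11 genes (13.3%) and by 49.9% of all genes, and the groups did not overlap for 71 of the 83 genes (79.7% of all genes). In NRRA, 19 were called higher, 32 lower and 32 not called, against 35.2% and 29.1% of all genes (64.3% called), with a median of -0.049 ± 0.0636 against 0.066 over all genes. There the groups did not overlap for 57 genes (80.8% of all genes), and 10 (12.0%) reached the same fold, where 50.3% of all genes did. The NRRA split was 24 higher and 26 lower without SPO11KO NRRA replicate 1 (median -0.005) and 21 and 25 without STRA8KO NRRA replicate 1. It was 6 higher and 53 lower by total counts (median of all genes -0.141), 6 and 54 with the abundance trend removed, 9 and 50 with length and GC trends removed, and 11 and 30 without STRA8KO NRRA replicate 2.

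In both media, which share no library, 15 genes were called higher in STRA8KO (24.6% of all genes were) and 21 lower (21.3%), and 14 were called in neither (23.3%). The 5 that were higher in NRRA under every alternative were Rpl10, Rpl11, Rpl39, Rps4x and Rps27l, and all 5 were also higher in Veh under every alternative. Of the genes that were lower, Rpl29 had the largest difference of a canonical gene, at 75.1 and 75.7 CPM in STRA8KO with Veh, 65.4 and 72.6 with NRRA, 149 and 147 in SPO11KO with Veh, and 121 and 115 with NRRA. Its libraries in STRA8KO lay below those labelled SPO11KO in both media, at -0.97 ± 0.0498 (SE, edgeR adjusted p = 2.53e-20) in Veh and -0.77 ± 0.0504 (SE, edgeR adjusted p = 4.6e-17) in NRRA. Rpl26 followed in NRRA with -0.62 ± 0.0403 (SE, edgeR adjusted p = 3.78e-17), after -0.34 ± 0.0403 (SE, edgeR adjusted p = 1.01e-09) in Veh. The 60S genes Rpl21 and Rpl35a, named here after their values were seen, were lower in both media as well (-0.53, edgeR adjusted p = 4.5e-15 and -0.59, edgeR adjusted p = 1.81e-16 for Rpl21, -0.47, edgeR adjusted p = 1.29e-11 and -0.55, edgeR adjusted p = 1.7e-13 for Rpl35a). The 40S gene Rps20 was higher in STRA8KO in Veh by 0.45 ± 0.0464 (SE, edgeR adjusted p = 2.88e-09) and not called in NRRA (0.10, edgeR adjusted p = 0.0652). Rpl13a had 0.45 in Veh (edgeR adjusted p = 6.63e-06) and 0.09 in NRRA (edgeR adjusted p = 0.351). Rpl17 and Rps28 were called higher in Veh and lower in NRRA, and Rplp0 and Rps2 the other way around. The median of the 40S genes was 0.116 in Veh and -0.052 in NRRA, and that of the 60S genes 0.052 and -0.038.

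**Figure D5:**
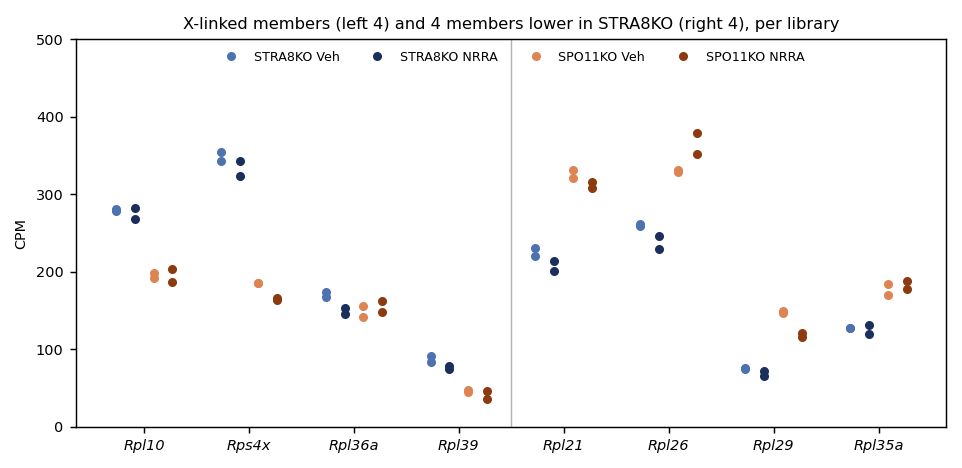
CPM of the X-linked genes Rpl10, Rps4x, Rpl36a and Rpl39 and of Rpl21, Rpl26, Rpl29 and Rpl35a, a point for each of the 8 libraries coloured by group. In both media Rpl10, Rps4x and Rpl39 are higher in STRA8KO, and Rpl21, Rpl26, Rpl29 and Rpl35a are lower.

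The stalk proteins recruit elongation factors to the ribosome and, unlike most ribosomal proteins, exchange on mature particles. Rplp0 (chromosome 5, 115559467 to 115563727), the base of the stalk and a common reference gene in PCR, stood at 1119 and 1124 CPM in STRA8KO with Veh, 1048 and 1083 with NRRA, 1184 and 1172 in SPO11KO with Veh, and 1026 and 994 with NRRA. It was called lower with NRRA in SPO11KO (-0.22 ± 0.0316 SE, edgeR adjusted p = 1.18e-07), while in STRA8KO it was -0.07 (edgeR adjusted p = 0.0596). Between genotypes it was -0.07 (edgeR adjusted p = 0.0476) in Veh and 0.08 (edgeR adjusted p = 0.0317) in NRRA. The latter turned to -0.131 by total counts, to -0.307 with the abundance trend removed and to -0.088 with length and GC trends removed. Rplp1, of the same stalk, had 876 and 907 CPM in STRA8KO with Veh, 813 and 886 with NRRA, 757 and 680.3 in SPO11KO with Veh, and 801 and 725 with NRRA. It was called higher in STRA8KO in Veh (0.31, edgeR adjusted p = 0.0026) and in no other comparison. Rplp2, with which Rplp1 pairs, had 532 and 560.1 CPM in STRA8KO with Veh, 476 and 511 with NRRA, 498 and 474 in SPO11KO with Veh, and 526 and 478 with NRRA. It was called lower with NRRA in STRA8KO (-0.15, edgeR adjusted p = 0.00531) and not in SPO11KO (0.05, edgeR adjusted p = 0.386, libraries overlapping), an interaction of -0.19 (edgeR adjusted p = 0.0158).

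Rpl5 and Rpl11 bind Mdm2 together with 5S rRNA when ribosome assembly fails and so stabilise p53. Rpl11 stood at 353 and 358 CPM in STRA8KO with Veh, 332 and 339 with NRRA, 309 and 308 in SPO11KO with Veh, and 261 and 261 with NRRA. It was higher in STRA8KO in both media (0.20 ± 0.0364 SE, edgeR adjusted p = 7.21e-06 and 0.36 ± 0.0365 SE, edgeR adjusted p = 1.85e-11). Rpl5 stood at 355 and 357 CPM in STRA8KO with Veh, 331 and 327 with NRRA, 415 and 440.2 in SPO11KO with Veh, and 403 and 397 with NRRA. It was lower in STRA8KO in both (-0.27 ± 0.0367 SE, edgeR adjusted p = 4.01e-08 and -0.28 ± 0.0367 SE, edgeR adjusted p = 9.49e-09). The partners thus differed in opposite directions between the genotypes, and these calls held under every alternative. With NRRA, Rpl11 was called lower in SPO11KO (-0.24, edgeR adjusted p = 3.7e-07). Rpl5 was near -0.1 in both genotypes (-0.11, edgeR adjusted p = 0.013 in STRA8KO and -0.10, edgeR adjusted p = 0.0265 in SPO11KO), calls that were lost under several alternatives. Rps6, the 40S protein that S6 kinase phosphorylates downstream of mTORC1, was at 326 and 331 CPM in STRA8KO with Veh, 298 and 313 with NRRA, 349 and 353 in SPO11KO with Veh, and 366 and 353 with NRRA. It was lower in STRA8KO than in SPO11KO in NRRA (-0.24, edgeR adjusted p = 5.36e-07) and in Veh (-0.09, edgeR adjusted p = 0.0277), and lower with NRRA in STRA8KO (-0.11, edgeR adjusted p = 0.0186). Rpsa, also known as the laminin receptor, was at 845 and 872 CPM in STRA8KO with Veh, 798 and 826 with NRRA, 1035 and 1009 in SPO11KO with Veh, and 913 and 898 with NRRA. It was lower in STRA8KO in both media (-0.25, edgeR adjusted p = 1.05e-08 and -0.16, edgeR adjusted p = 6.09e-05). Rps27a, which is translated as a fusion with ubiquitin, passed the test in no comparison, with log2 fold changes from -0.22 to 0.17, the interaction included.

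Ribosomal protein genes that the naming leaves out were few. They include Fau, whose product is fused to a ubiquitin-like protein, Rps3a1, and the paralogs Rpl36al, Rpl22l1 and Rpl7l1. Rpl7l1 was called lower with NRRA in both genotypes (-0.24, edgeR adjusted p = 4.88e-05 and -0.40, edgeR adjusted p = 8.19e-10), and Rpl22l1 was called lower in STRA8KO in NRRA (-1.18, edgeR adjusted p = 0.00472). Fau was called higher in STRA8KO in Veh (0.21, edgeR adjusted p = 6.89e-05) and Rps3a1 lower in both media (-0.09, edgeR adjusted p = 0.0359 and -0.09, edgeR adjusted p = 0.0207). Rpl36al was called in none of the 4 comparisons (its log2 fold changes ran from -0.65 to 0.64).

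The genes that build ribosomes had larger median changes with NRRA than the genes of ribosomal proteins. Of 30 ribosome biogenesis genes, 20 were called lower and 1 higher with NRRA in STRA8KO (median -0.196), and 23 lower and 1 higher in SPO11KO (median -0.402). In the same comparisons, 20.1% and 25.5% of all genes were called lower, and 21.4% and 24.7% higher. The count of 20 fell to 13 without STRA8KO NRRA replicate 2. Rrp9, of the particle that directs early rRNA cleavage, fell most in SPO11KO, at 64.6 and 66.3 CPM in STRA8KO with Veh, 50.9 and 56.5 with NRRA, 93.6 and 88.02 in SPO11KO with Veh, and 38.8 and 41.01 with NRRA. Its NRRA effect was -1.18 ± 0.0572 SE, edgeR adjusted p = 5.05e-21, in SPO11KO and -0.28 ± 0.0594 SE, edgeR adjusted p = 0.000122, in STRA8KO. Of the particle that makes pseudouridine in rRNA, Nhp2 had -0.66 (edgeR adjusted p = 4.18e-14) in SPO11KO, Nop10 had -0.43 (edgeR adjusted p = 5.28e-06) in STRA8KO, and the enzyme Dkc1 had -0.40 (edgeR adjusted p = 7.43e-07) in STRA8KO and -0.27 (edgeR adjusted p = 4.39e-05) in SPO11KO. Ubtf, a factor of RNA polymerase I, was the increase in STRA8KO (0.36, edgeR adjusted p = 2.13e-09), and Pes1, of 60S maturation, that in SPO11KO (0.13, edgeR adjusted p = 0.0153). The interaction was called positive for 17 of the 30 and negative for 0 (median 0.228), with 0 negative also at an unadjusted p under 0.05 and under the DESeq2 Wald test, which called 13 positive. There were 4 negative calls by total counts and 4 with length and GC trends removed. Over all genes, 14.6% of interactions were called positive and 10.1% negative. Against SPO11KO, 26 of the 30 were lower in STRA8KO in Veh (median -0.408), and the other 4 were not called, while 17 were lower and 2 higher in NRRA (median -0.156). Over all genes, 30.7% were called lower in STRA8KO and 31.5% higher in Veh, and 29.1% lower and 35.2% higher in NRRA. The size of the difference between this list and the ribosomal protein genes was not tested.

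The elongation and initiation factors whose mRNAs share the TOP motif, with other genes of that class, lay between. Of 19 such genes, 10 were called lower and 1 higher with NRRA in STRA8KO (median -0.103), and 12 lower and 1 higher in SPO11KO (median -0.127), against 20.1% and 25.5% of all genes lower and 21.4% and 24.7% higher. Lower calls in STRA8KO were 6 without STRA8KO NRRA replicate 1, 16 with DESeq2 size factors and 18 with length and GC trends removed, and higher calls in SPO11KO were 6 by total counts and 8 with the abundance trend removed. Pabpc1, the cytoplasmic poly(A)-binding protein, was lower in both (-0.29, edgeR adjusted p = 5.6e-08 and -0.47, edgeR adjusted p = 8.36e-13). Also lower in both were Nap1l1, a histone chaperone (-0.37, edgeR adjusted p = 4.23e-10 and -0.39, edgeR adjusted p = 4.09e-11), and Btf3 (-0.29, edgeR adjusted p = 9.93e-07 and -0.33, edgeR adjusted p = 6.26e-08). Eif3f, a subunit of initiation factor eIF3, was the increase in both (0.14, edgeR adjusted p = 0.00768 and 0.16, edgeR adjusted p = 0.00105), though it turned to -0.016 in STRA8KO with length and GC trends removed. Of 26 genes of the mTORC1 pathway and of TOP translation, 7 were called higher and 8 lower with NRRA in STRA8KO and 6 higher and 13 lower in SPO11KO, against the shares of all genes just given. The 8 lower in STRA8KO were 5 without STRA8KO NRRA replicate 1 or either STRA8KO Veh library and 14 with length and GC trends removed. Mtor itself was higher in both (0.56 ± 0.0390 SE, edgeR adjusted p = 8.06e-16 and 0.69 ± 0.0380 SE, edgeR adjusted p = 4.98e-19). Eef2k, the kinase that inhibits elongation factor eEF2, was higher too (0.68 ± 0.0542 SE, edgeR adjusted p = 5.35e-14 and 0.97 ± 0.0512 SE, edgeR adjusted p = 8.41e-20). Larp1, which binds TOP mRNAs, was lower with NRRA in both genotypes, at -0.68 ± 0.0356 (SE, edgeR adjusted p = 6.35e-20) in SPO11KO and -0.09 ± 0.0359 (SE, edgeR adjusted p = 0.0356) in STRA8KO, an interaction of 0.59 ± 0.0505 (SE, edgeR adjusted p = 1.66e-12). It was named after its values were seen.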

How the data were processed

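Poly(A) RNA from SSC culture was sequenced in 8 libraries, 2 in each of 4 groups, grouped by the submitters' labels. The deposited values are raw counts per gene that the authors made, per the submitters' processing notes, with bcl2fastq, STAR (version 2.6.1c) and featureCounts (version 1.6.4) on mm10. The annotation release, the strand setting and how multi-mapping reads were treated are not given in the sources used here. Libraries held 20960794 to 27038868 counts, and 0 columns were left out. From these counts, edgeR 4.0.16 (limma 3.58.1, R 4.3.3) fitted the quasi-likelihood model with robust dispersion and TMM scaling to all 8 libraries over the 20588 genes kept by filterByExpr, which hold 99.9% of the counts (common biological coefficient of variation 3.39%). Two-sided p-values were adjusted by Benjamini-Hochberg over all these genes, and adjusted p-values under 0.05 were counted as called. Every p in the text is from this test unless DESeq2 (1.42.0) is named. Where an adjusted p follows "without" a library, the fit was repeated on the other libraries, and a group left with 1 library was taken to vary like the others.

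The alternatives were another test (DESeq2), other scalings (DESeq2 size factors, total counts, TMM without the ribosomal protein genes, trends with abundance or with length and GC removed), other filters, an adjusted p under 0.01, a replicate block, the 4 libraries of a comparison alone and leaving out each library. Positions, biotypes and overlaps come from GENCODE M21 (GRCm38), which matched 55154 of 55421 rows, and start windows from RefSeq (GRCm38.p6). Identity of paralogs is that of their coding sequences, in place of the protein identity first planned. The members, gene lists and tests were chosen with earlier results of these data known. Named with values were the paralogs and their partners, the stalk genes, the X-linked genes, Rpsa, Rps6, Rps27a, Rpl5 and Rpl11, in each comparison the 3 highest and 3 lowest genes whose log2 CPM averaged at least 1, ribosomal protein genes outside the naming rule, and the 2 highest and 2 lowest of each other list. Rpl8, Rpl21, Rpl26, Rpl27a, Rpl35a, Rpl41, Rps23, Rps28, Larp1 and the genes at the ends of the range of levels were named after their values were seen, most because their calls held under every alternative. Results for some genes that this rule covers are not reported here.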

Additional observations from a re-analysis of the deposited data

Results flagged for a closer look

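The effect of NRRA differed between STRA8KO and SPO11KO for 27 of the 83 cytosolic ribosomal protein genes by the interaction test (edgeR, adjusted p under 0.05), with 21 more negative and 6 more positive in STRA8KO. This was 32.5% of the 83, where 24.7% of all genes tested had a called interaction, 10.1% more negative and 14.6% more positive. Of the 586 genes whose log2 CPM averaged at least 8, 49.1% had one, 84 more negative and 204 more positive. The 83 genes were thus called more often than all genes and less often than abundant genes. Rps4l differed by 0.414 on the log2 scale, Rps2 by 0.275, Rpl11 by 0.16 and Rplp0 by 0.149, and Rpl36a by -0.246, Rps20 by -0.354, Rpl13a by -0.359, Rplp2 by -0.192 and Rps6 by -0.143. The interaction of Rplp0 (edgeR adjusted p = 0.0112) was not called by DESeq2 (0.0618) or total counts (0.39), that of Rpl11 (edgeR adjusted p = 0.0183) was not called by DESeq2 (0.0881) or total counts (0.366), and that of Rps6 (edgeR adjusted p = 0.0421) was lost without STRA8KO NRRA replicate 1 (0.223). Those of Rplp2 (edgeR adjusted p = 0.0158), Rpl36a (0.00517) and Rpl13a (0.0162) were lost without SPO11KO NRRA replicate 1 (0.126 for Rplp2 and 0.0623 for Rpl36a) and without STRA8KO NRRA replicate 1 (0.0951 for Rpl13a). The pseudogene Rpl32l had the largest value, -1.006 (edgeR adjusted p = 0.0481), at an average log2 CPM of 1.11. It stood at 2.73 and 3.02 CPM in STRA8KO with Veh, 1.74 and 2.26 with NRRA, 1.52 and 1.39 in SPO11KO with Veh, and 2.70 and 1.47 with NRRA, and its interaction was -0.53 without SPO11KO NRRA replicate 1 (edgeR adjusted p = 0.424) and was not called by DESeq2 (0.147).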

How the results depend on the processing

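Over all tested genes, correlations of same-numbered deviations between groups were small, from -0.027 to 0.056. The cytosolic ribosomal protein genes still shifted in a shared direction by replicate number within a genotype. Replicate 1 was above replicate 2 for 13 of the 83 in either medium in STRA8KO, and for 67 (Veh) and 69 (NRRA) in SPO11KO. The replicate block was a single term for all groups, so it could not cover shifts of opposite sign between the genotypes. With the replicate block, counts higher and lower were 2 and 36 (NRRA in STRA8KO), 15 and 23 (NRRA in SPO11KO), 33 and 25 (genotypes in Veh), 20 and 32 (genotypes in NRRA) and 6 and 21 (interaction), with medians of -0.098, -0.002, 0.052, -0.049 and -0.057. Of the summary values, 232 stayed within the spread or within 1.5 times the count, and 60 moved. Of the values for single genes and lists, 6002 kept direction and side of the threshold, 188 lost it, 140 gained it, 199 without a test moved and 12 reversed. The cause of these changes was not tested.

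With the abundance trend removed, 17 genes were lower with NRRA in STRA8KO (median -0.057), 37 higher and 9 lower in SPO11KO (0.133), 21 higher in STRA8KO in Veh (-0.046), 6 higher and 54 lower in NRRA (-0.246), and interactions were 1 and 34 (-0.139). With length and GC trends removed, 64 were lower with NRRA in STRA8KO (-0.202), 9 higher and 50 lower between genotypes in NRRA (-0.178), and interactions 2 and 41 (-0.165). By total counts, 32 were higher and 14 lower with NRRA in SPO11KO (0.09), 15 higher in STRA8KO in Veh (-0.062), 6 higher and 53 lower in NRRA (-0.256), and interactions 1 and 34 (-0.151). Positive interactions numbered 1 with DESeq2, 2 with its size factors and 1 without the filter (median -0.12). Genotypes in NRRA had 10 higher without the filter and 10 higher with only the 4 libraries (-0.121). At an adjusted p under 0.01, 20 were lower with NRRA in STRA8KO, 9 higher in SPO11KO, and interactions 2 and 11. The medians of all genes moved too. With length and GC trends removed they were -0.072 (NRRA in STRA8KO), -0.005 (genotypes in NRRA) and -0.035 (interaction). By total counts they were 0.105 (NRRA in SPO11KO), -0.112 (genotypes in Veh), -0.141 (genotypes in NRRA) and -0.08 (interaction). With the abundance trend removed they were -0.012, 0.004, 0.009, 0.04 and -0.02, in the order of comparisons given above.

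Leaving out each library gave 2 to 3 higher and 13 to 48 lower with NRRA in STRA8KO (median -0.131 to -0.072), 7 to 19 and 18 to 29 in SPO11KO (-0.057 to 0.026), 26 to 37 and 20 to 26 between genotypes in Veh (0.015 to 0.076), 11 to 24 and 25 to 34 in NRRA (-0.093 to -0.005), and interactions of 2 to 8 and 10 to 25 (-0.111 to -0.019). Without the 10 largest genes the shares were 2.846% (STRA8KO, Veh), 2.668% (STRA8KO, NRRA), 3.043% (SPO11KO, Veh) and 3.125% (SPO11KO, NRRA), and with pseudogenes added STRA8KO Veh was 2.762%. A pyrimidine run of at least 7 near the start was present in 81.97% of the genes. Values that reversed were, with the abundance trend removed, Rpl10 0.124 and Rpl5 0.042 with NRRA in SPO11KO and, between genotypes in NRRA, Rpl3 -0.135, Rplp0 -0.307 and Tpt1 -0.054. With length and GC trends removed they were Rpl3 -0.098 and Rplp0 -0.088 in the latter, and Eif3f -0.016 and Pes1 -0.102 with NRRA in STRA8KO. By total counts they were Rpl3 -0.164, Rplp0 -0.131 and Fau -0.11 between genotypes in NRRA.

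With 2 libraries a group, p-values rest on a spread shared by all 8, and shifts of a few percent common to the set cannot be told apart from those between libraries of 1 group. Genes with shared or overlaid sequence, such as Rps27 and Rpl24, have uncertain levels.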

Other observations

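The ribosomes of mitochondria have their own proteins, encoded in the nucleus. Of 77 such genes tested, 20 were called lower and 3 higher with NRRA in STRA8KO (median log2 fold change -0.068), and 45 lower and 2 higher in SPO11KO (median -0.205), where 20.1% and 25.5% of all genes were lower and 21.4% and 24.7% higher. Lower calls in STRA8KO were 11 without STRA8KO Veh replicate 2, 13 without either STRA8KO NRRA library and 35 with length and GC trends removed, and those in SPO11KO were 29 by total counts. Mrps6, of the small mitochondrial subunit, stood at 17.0 and 18.1 CPM in STRA8KO with Veh, 8.01 and 6.83 with NRRA, 16.8 and 17.5 in SPO11KO with Veh, and 6.02 and 7.34 with NRRA. Its log2 fold changes with NRRA were -1.24 ± 0.117 (SE, edgeR adjusted p = 5.89e-12) in STRA8KO and -1.35 ± 0.111 (SE, edgeR adjusted p = 9.52e-14) in SPO11KO. The interaction was called positive for 14 genes and negative for 2 (median 0.101), the highest being Mrpl58, a peptide release factor of that ribosome, at 0.71 ± 0.127 (SE, edgeR adjusted p = 2.91e-05). Between the genotypes 34 were lower in STRA8KO and 11 higher in Veh (median -0.156), and 23 lower and 19 higher in NRRA (median -0.026), where total counts gave 46 and 5. Over all genes, 30.7% were lower and 31.5% higher in Veh, and 29.1% lower and 35.2% higher in NRRA. Interactions were called positive for 14.6% of all genes and negative for 10.1%.

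The snoRNA host genes are noncoding genes whose introns hold the small RNAs that guide rRNA modification. Several of their RNAs, like ribosomal protein mRNAs, begin with a TOP motif. Of 8 such genes, 3 were called higher with NRRA in STRA8KO (median 0.09), 5 in SPO11KO (median 0.265), and 5 in STRA8KO against SPO11KO in Veh (median 0.533) and in NRRA (median 0.408). The shares of all genes called higher in these comparisons were 21.4%, 24.7%, 31.5% and 35.2%. Gas5 stood at 77.8 and 82.4 CPM in STRA8KO with Veh, 97.4 and 92.1 with NRRA, 53.6 and 52.95 in SPO11KO with Veh, and 66.3 and 64.2 with NRRA, so each NRRA library lay above each Veh library of its genotype (0.24 ± 0.0519 SE, edgeR adjusted p = 0.000157 in STRA8KO and 0.29 ± 0.0542 SE, edgeR adjusted p = 1.56e-05 in SPO11KO). Zfas1 and Snhg12 were called higher with NRRA in both genotypes as well (0.41 and 0.53 for Zfas1, 0.55 and 0.50 for Snhg12). Snhg8 was called higher in SPO11KO (0.39, edgeR adjusted p = 0.0132) and had -0.26 in STRA8KO (edgeR adjusted p = 0.0707), an interaction of -0.65 (edgeR adjusted p = 0.00481).

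In the mTORC1 list, Mycn, a transcription factor that drives ribosome production genes, stood at 42.5 and 40.5 CPM in STRA8KO with Veh, 53.5 and 50.2 with NRRA, 65.4 and 63.3 in SPO11KO with Veh, and 30.2 and 30.5 with NRRA, with an interaction of 1.40 ± 0.0867 (SE, edgeR adjusted p = 1.12e-16). Its relative Myc was higher in STRA8KO in both media (1.00 and 1.06), at 46.02 and 39.9 CPM in STRA8KO Veh against 21.98 and 21.1 in SPO11KO Veh. Of the ribosomal protein pseudogene rows, 123 of 309 passed the filter, and all 309 together held 0.0653% to 0.0743% of the counts (means of the groups). In STRA8KO against SPO11KO in Veh, 28 of the 123 were called higher and 10 lower (30.9% called). Over all genes, 31.5% were called higher and 30.7% lower there (62.1% called). Of 5 macrophage markers, 3 were called higher in STRA8KO in Veh (median 1.282) and 4 in NRRA (median 0.902), and of 4 Sertoli cell markers that passed the filter, 2 were called higher in each medium (medians 0.123 and 0.613). The shares of all genes called higher were 31.5% in Veh and 35.2% in NRRA.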
